A study of Mus musculus with 18 samples.

Results

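The genes described here code for the 5 subunits of the transcription factor NF-kB (Nfkb1, Nfkb2, Rel, Rela and Relb) and for 5 inhibitors and regulators that restrain or tune it (Nfkbia, Nfkbie, Nfkbiz, Tnfaip3 and Birc3). These 10 genes, of 16925 in the annotated expression matrix, were taken by name and not by their values, and all 10 passed the filter on low counts. They were read in bulk poly(A)+ RNA from the tissue resected around brain metastases in 18 mouse brains, 6 for each of 3 tumour models.

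The tumour cells were B16-F10-BrM4 for melanoma, selected from a mouse melanoma line for growth in brain, EO771-BrM3 for breast cancer, selected likewise from a mouse mammary carcinoma line, and 482N1 for lung cancer. The genotype was labelled WT throughout, and brains were taken on day 10 after injection of 40000 cells. Each model rests on 1 tumour cell line, and the sources used here gave no strain, age or sex. There was no tumour-free brain, so each comparison is between models, and the labels do not tie replicate numbers to a batch. Each replicate is 1 brain, each fold change is on the log2 scale with the first-named model on top, and levels are CPM, reads scaled to a common library size.

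NF-kB proteins act as dimers that IkB proteins hold in the cytoplasm. In the canonical pathway, receptors for tumour necrosis factor, interleukin-1 or microbial products activate the IkB kinase, the IkB protein is degraded, and dimers with Rela or Rel enter the nucleus. In the non-canonical pathway the kinase coded by Map3k14 drives processing of the Nfkb2 product, which frees dimers with Relb. Several of the genes that NF-kB switches on are its own parts and brakes, among them Nfkbia, Tnfaip3, Nfkb2 and Birc3, and in the brain the pathway is known from microglia, astrocytes, endothelium and infiltrating leukocytes.

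Since these feedback genes are textbook targets of NF-kB, the starts of 4 of them are shown, with matches to the kappaB consensus motif in capitals. The sequences are RefSeq's on GRCm38.p6, while the reads were placed on GRCm39, and each runs 5′ to 3′ on the gene's strand from 250 bases before its start to 50 after.
Nfkbia, chr12:55492598-55492897, minus strand: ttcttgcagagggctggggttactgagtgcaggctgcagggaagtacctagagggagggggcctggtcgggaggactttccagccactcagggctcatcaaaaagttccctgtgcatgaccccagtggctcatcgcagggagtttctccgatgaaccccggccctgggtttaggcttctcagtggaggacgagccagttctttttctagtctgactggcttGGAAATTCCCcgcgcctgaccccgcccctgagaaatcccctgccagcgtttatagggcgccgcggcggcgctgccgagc
Nfkb2, chr19:46304487-46304786, plus strand: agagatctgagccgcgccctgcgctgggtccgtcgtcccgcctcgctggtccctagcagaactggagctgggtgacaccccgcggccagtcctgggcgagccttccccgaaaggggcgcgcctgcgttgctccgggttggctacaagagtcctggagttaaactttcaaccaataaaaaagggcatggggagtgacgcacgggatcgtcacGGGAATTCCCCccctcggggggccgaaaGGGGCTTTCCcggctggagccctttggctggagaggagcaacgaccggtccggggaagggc
Tnfaip3, chr10:19015361-19015660, minus strand: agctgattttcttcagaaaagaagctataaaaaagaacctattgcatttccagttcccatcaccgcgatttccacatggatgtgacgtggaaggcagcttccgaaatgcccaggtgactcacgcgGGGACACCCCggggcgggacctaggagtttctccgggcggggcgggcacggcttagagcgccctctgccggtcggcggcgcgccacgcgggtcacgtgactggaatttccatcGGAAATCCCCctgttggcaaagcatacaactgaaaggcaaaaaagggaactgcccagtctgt
Birc3, chr9:7873121-7873420, minus strand: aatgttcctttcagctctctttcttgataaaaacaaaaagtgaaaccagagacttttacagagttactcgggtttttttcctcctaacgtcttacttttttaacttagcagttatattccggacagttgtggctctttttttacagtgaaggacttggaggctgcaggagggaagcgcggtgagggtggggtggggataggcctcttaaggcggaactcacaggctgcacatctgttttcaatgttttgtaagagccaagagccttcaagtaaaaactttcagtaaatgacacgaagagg

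Matches are spelled as printed above, with the strand on which the motif was found. The capitals of Nfkbia begin 29 bases before the start (GGAAATTCCC, opposite strand). Nfkb2 holds 2 separate stretches. The upstream one takes in 2 overlapping matches, GGGAATTCCC on both strands and GGAATTCCCC on the opposite strand, and the other is GGGGCTTTCC on the printed strand. Tnfaip3 holds GGGACACCCC on the printed strand at 125 and GGAAATCCCC on the opposite strand at 12 bases before its start. Birc3 holds none in this window, and neither does Rela. The table of starts held 7 of the 10 genes, in 10 windows of which some overlap, and 5 of these 7 genes had a match on either strand in at least 1 window, with Rel and Nfkbie the others. Of all 32851 windows of this length 4.51% had a match, and 5.14% of 27025 genes. A match here is of letters only, and binding was not measured.

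Most of these genes were lowest around melanoma, intermediate around lung cancer and highest around breast cancer. Summed over the 10 genes, the level was 106 to 162 CPM in the melanoma libraries (median 131), 432 to 654 CPM in the breast libraries (median 530) and 184 to 369 CPM in the lung libraries (median 247), with no overlap between models. In the test across all genes (edgeR's quasi-likelihood test with Benjamini-Hochberg adjustment over 17174 genes, threshold 0.05), 9 of the 10 differed among the models, where 35.8% of all genes did. The exception was Nfkbie (adjusted p = 0.107).

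Against lung, 9 of 10 were lower in melanoma, where 14.7% of all genes were, and none was higher (8.51% of all genes). In 5 genes every melanoma library lay below every lung library, as in 9.63% of all genes. Against breast, 9 of 10 were lower in melanoma, where 19.2% of all genes were, and none was higher (9.76% of all genes). All 9 were without overlap (12.1% of all genes). Breast against lung gave 7 of 10 higher, where 11.2% of all genes were, and none lower (7.16% of all genes). Of these, 3 were free of overlap (8.94% of all genes). The median log2 fold change of the 10 genes was -0.98 for melanoma over lung, -1.73 for melanoma over breast and 0.80 for breast over lung, beside 0.02, 0.04 and -0.02 over all genes tested. The comparisons share libraries, so they are not independent of each other.

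**Figure D1:**
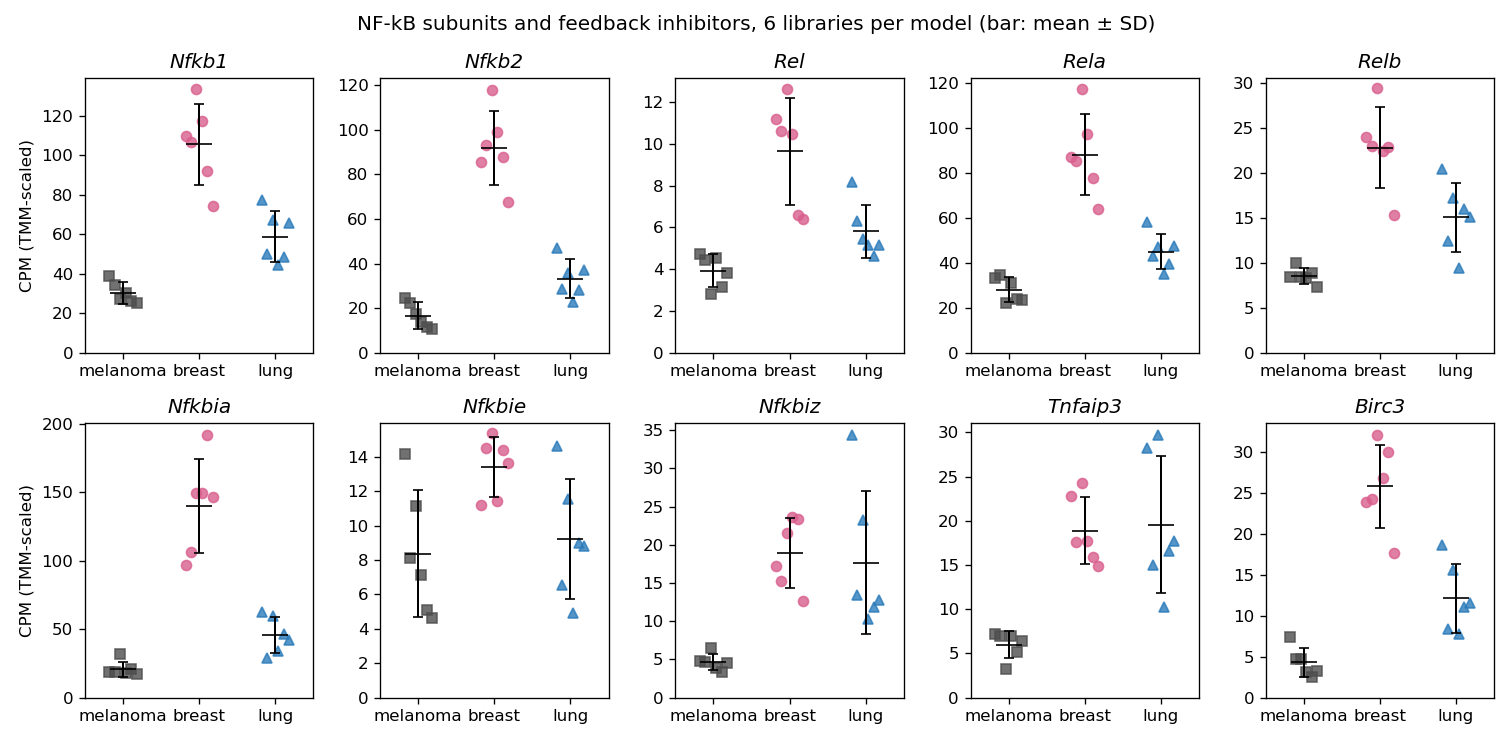
Level of each gene in CPM on TMM-scaled library sizes (vertical axis, linear from 0) in the 6 melanoma, 6 breast and 6 lung libraries, 1 point per brain, with the mean and SD as a black bar. Nfkb2 and Nfkbia keep the 6 breast libraries above all others, at 67.4 to 118 and 97.1 to 192 CPM, while Nfkbiz and Tnfaip3 set the 6 melanoma libraries below both other models, at 3.34 to 6.42 and 3.21 to 7.21 CPM.

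Markers of several cell types also differed between the models, and their values stand beside every result that follows. Markers of microglia summed to 269 to 369 CPM in melanoma, 758 to 983 CPM in breast and 726 to 1076 CPM in lung libraries. Monocyte and macrophage markers summed to 32.5 to 203 CPM in melanoma, 426 to 743 CPM in breast and 380 to 973 CPM in lung. Neutrophil markers summed to 4.31 to 8.34 CPM in melanoma, 99.7 to 292 CPM in breast and 26.0 to 215 CPM in lung. For melanoma against lung, 6 of 7 microglial markers, 6 of 8 monocyte and macrophage markers and 6 of 7 neutrophil markers were lower, and 1 monocyte and macrophage marker was higher. For melanoma against breast, 5 of 7, 6 of 8 and 7 of 7 of these markers were lower and none higher. For breast against lung none of 7 microglial markers differed, 2 of 8 monocyte and macrophage markers were higher and 1 lower, and 2 of 7 neutrophil markers were higher. No marker of these 3 lists was at 0 in any model. B cell markers summed to 1.10 to 1.85 CPM in melanoma, 11.7 to 30.5 CPM in breast and 1.41 to 3.78 CPM in lung libraries. Of 5 of them 2 were tested, and both were lower for melanoma against breast, 1 was lower for melanoma against lung and 1 was higher for breast against lung. T cell markers summed to 10.4 to 24.6 CPM in melanoma, 19.2 to 45.2 CPM in breast and 15.1 to 27.4 CPM in lung libraries. Of these 4 of 7 were lower for melanoma against breast and none was called in the other comparisons. Tumour RNA was read as well: melanocyte markers summed to 3740 to 23360 CPM in melanoma, 13.2 to 21.1 CPM in breast and 10.7 to 12.7 CPM in lung libraries. Epithelial markers summed to 4.94 to 5.78 CPM in melanoma, 66.3 to 167 CPM in breast and 309 to 1318 CPM in lung libraries. All 8 melanocyte markers were higher in melanoma than in either other model, and the epithelial marker Cldn4 was at 0 in melanoma and breast. Astrocyte markers summed to 1658 to 2744 CPM in melanoma, 3541 to 4332 CPM in breast and 3361 to 5305 CPM in lung libraries. Of these markers 3 of 7 were lower for melanoma against lung and 4 of 7 for melanoma against breast. None differed for breast against lung. Of 6 oligodendrocyte markers none was called in any comparison. Of 6 endothelial markers 1 was lower in melanoma in each comparison, and 1 was higher and 1 lower for breast against lung. Of 7 neuron markers 1 was higher for melanoma against breast and 1 lower for breast against lung. Of 7 fibroblast and mural markers 4 were lower for melanoma against lung and 2 for melanoma against breast. For breast against lung 1 was higher and 3 were lower. In bulk tissue, fewer cells of a type and less RNA per cell cannot be told apart, and the part of these cells in the results was not tested.

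Library totals ran from 10669355 to 13396710 counts in melanoma, 7366250 to 13544054 in breast and 12070005 to 14533877 in lung, which puts 3 counts at 0.206 to 0.407 CPM, far under the lowest level of any of the 10 genes (2.50 CPM). In 3 libraries long transcripts were scarce beside the average library. For log2 CPM centred on each gene's mean over the 18 libraries, the slope for each doubling of length was taken. It was -0.276 in melanoma replicate 3, -0.295 in breast replicate 18, -0.236 in breast replicate 19 and -0.13 to 0.206 in the remaining 15. A further 3 libraries, chosen from earlier results on leukocyte genes, were also left out together. Monocyte and macrophage markers summed to 203 CPM in melanoma replicate 1, against 32.5 to 50.6 CPM in the other 5. Lung replicates 8 and 10 had the lowest sums of their model, 401 and 380 CPM, next to replicate 11 at 476 CPM, with the other 3 at 850 to 973 CPM. Without the libraries poor in long transcripts the number of genes called stayed at 9 for melanoma against lung, 9 for melanoma against breast and 7 for breast against lung. Without melanoma replicate 1 and lung replicates 8 and 10 it was 8 for melanoma against lung, 10 for melanoma against breast and 6 for breast against lung.

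Of the subunits, Nfkb1 (chromosome 3), whose product is the precursor of p50, and Rela (chromosome 19), the main activating subunit of the canonical pathway, varied most alike of all pairs among the 10 genes. Nfkb1 stood at 24.9 to 38.8 CPM in the melanoma libraries (median 28.6), 74.3 to 134 CPM in the breast libraries (median 108) and 44.1 to 77.1 CPM in the lung libraries (median 57.8). Rela stood at 22.1 to 34.4 CPM in melanoma (median 27.3), 63.9 to 117 CPM in breast (median 86.2) and 35.1 to 58.0 CPM in lung (median 44.8). For both genes every melanoma library was below every breast and every lung library, and breast overlapped lung for Nfkb1 only, through breast replicate 19 and lung replicate 7. Melanoma over lung was -0.96 ± 0.16 for Nfkb1 (log2, SE; adjusted p = 0.000177) and -0.68 ± 0.16 for Rela (adjusted p = 0.00304). Set against breast, melanoma was -1.81 ± 0.17 for Nfkb1 (adjusted p = 1e-07) and -1.65 ± 0.16 for Rela (adjusted p = 1.8e-07). Breast over lung was 0.85 ± 0.16 (adjusted p = 0.000854) for Nfkb1 and 0.97 ± 0.16 (adjusted p = 0.000151) for Rela. Once each gene was centred on its own mean, the pair differed by a root mean square of 0.14 on the log2 scale over the 18 libraries.

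Nfkb2 (chromosome 19), the precursor of the non-canonical subunit, had the largest difference between melanoma and breast of the 5 subunits. Its level was 24.6, 22.4, 17.3, 13.7, 11.4 and 10.4 CPM in melanoma replicates 1 to 6, 67.4 to 118 CPM in breast libraries (median 90.4) and 22.7 to 47.2 CPM in lung libraries (median 32.2). All breast libraries were above all others, and melanoma met lung where melanoma replicate 1 passed lung replicate 10. Melanoma over lung (log2) was -0.99 ± 0.22 (SE, adjusted p = 0.00179), melanoma over breast -2.46 ± 0.22 (adjusted p = 8.51e-08) and breast over lung 1.47 ± 0.22 (adjusted p = 5.27e-05). The melanoma libraries with most melanocyte RNA were also those with most Nfkb2: melanocyte markers summed to 15266, 13670 and 23360 CPM in replicates 1, 2 and 3, and to 7285, 4618 and 3740 CPM in replicates 4, 5 and 6. Cell cycle markers followed the same split, at 1297, 1214 and 1344 CPM in replicates 1, 2 and 3 and 583, 378 and 294 CPM in replicates 4, 5 and 6. The part of tumour RNA in the Nfkb2 level was not tested.

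Relb (chromosome 7), the partner of the processed Nfkb2 product, and Rel (chromosome 11), best known from lymphocytes and myeloid cells, were the subunits with the lowest mean level per length in each model. Relb stood at 7.26 to 9.98 CPM in melanoma (median 8.38), 15.3 to 29.4 CPM in breast (median 23.0) and 9.38 to 20.4 CPM in lung libraries (median 15.5). Rel stood at 2.82 to 4.71 CPM in melanoma (median 4.12), 6.42 to 12.6 CPM in breast (median 10.6) and 4.62 to 8.18 CPM in lung libraries (median 5.29). Melanoma and breast did not overlap for either gene, while lung lay between and touched both. Relb was -0.82 ± 0.17 for melanoma over lung (adjusted p = 0.0012), -1.42 ± 0.17 for melanoma over breast (adjusted p = 2.63e-06) and 0.60 ± 0.17 for breast over lung (adjusted p = 0.0161). The Relb difference between breast and lung was no longer called without melanoma replicate 1 and lung replicates 8 and 10 (0.41, adjusted p = 0.111). Rel was -0.57 ± 0.20 for melanoma over lung (adjusted p = 0.0454), -1.31 ± 0.20 for melanoma over breast (adjusted p = 3.57e-05) and 0.74 ± 0.19 for breast over lung (adjusted p = 0.0101). The first of these is marginal: it was called in 6 of 18 fits that left out 1 library (adjusted p = 0.0302 to 0.135) and in 7 of 12 other settings. Rel has a long transcript of 7466 bases and was lowest of its models in the libraries poor in long transcripts, at 2.82 CPM in melanoma replicate 3 and 6.57 and 6.42 CPM in breast replicates 18 and 19.

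Nfkbia (chromosome 12), the IkB protein that NF-kB itself induces to end its own activity, had the largest difference of the 10 genes between melanoma and breast and between breast and lung. It stood at 18.4, 18.6, 31.7, 18.1, 20.7 and 17.3 CPM in melanoma replicates 1 to 6, 97.1 to 192 CPM in breast libraries (median 148) and 29.3 to 62.2 CPM in lung libraries (median 44.3). Every breast library was above every other, and only melanoma replicate 3 reached the range of lung. Melanoma over breast was -2.75 ± 0.22 (adjusted p = 1.58e-08), a 6.73-fold lower level in melanoma. The difference of melanoma from lung was -1.14 ± 0.21 (adjusted p = 0.000382) and that of breast from lung 1.62 ± 0.21 (adjusted p = 1.28e-05). Nfkbia has the shortest transcript of the 10 genes (1578 bases), and its highest melanoma and breast values fell in libraries poor in long transcripts, melanoma replicate 3 and breast replicate 18. Without these and breast replicate 19, melanoma over lung was -1.29, melanoma over breast -2.69 and breast over lung 1.40, all still called.

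Nfkbie (chromosome 17), another cytoplasmic IkB protein, was the one gene with no call in any comparison. It stood at 4.62 to 14.2 CPM in melanoma (median 7.63), 11.2 to 15.4 CPM in breast (median 14.03) and 4.90 to 14.7 CPM in lung libraries (median 8.92). All 3 models overlapped, with melanoma replicate 1 and lung replicates 7 and 9 within the breast range. Melanoma over breast was -0.67 (95% interval -1.24 to -0.11, adjusted p = 0.0687), breast over lung 0.54 (-0.02 to 1.10, adjusted p = 0.193) and melanoma over lung -0.14 ± 0.27 (SE, adjusted p = 0.785). The difference from breast was called without melanoma replicate 1 (-0.89, adjusted p = 0.0141), without melanoma replicate 3 (-0.72, adjusted p = 0.0417), with limma voom (-0.76, adjusted p = 0.0372) and without melanoma replicate 1 and lung replicates 8 and 10 together (-0.89, adjusted p = 0.00497).

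Nfkbiz (chromosome 16), a nuclear IkB protein that is needed for a subset of secondary inflammatory genes, was lower in melanoma than in both other models, with no call between breast and lung. It stood at 3.34 to 6.42 CPM in melanoma (median 4.61), 12.7 to 23.7 CPM in breast (median 19.4) and 10.3 to 34.3 CPM in lung libraries (median 13.1). Melanoma lay below every breast and lung library, while the lung libraries spanned the whole breast range, with replicates 7 and 9 at 34.3 and 23.2 CPM and the other 4 at 10.3 to 13.5 CPM. On the log2 scale it was -1.93 ± 0.28 for melanoma over lung (SE, adjusted p = 2.71e-05) and -2.03 ± 0.28 for melanoma over breast (adjusted p = 1.25e-05). Breast over lung was 0.10 (95% interval -0.45 to 0.65, adjusted p = 0.839), an interval that leaves room for a difference either way. Neutrophil markers were also highest in lung replicates 7 and 9, at 215 and 106 CPM, against 26.0 to 43.3 CPM in the other 4. Their part in the Nfkbiz spread was not tested.

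Tnfaip3 (chromosome 10), the ubiquitin-editing enzyme that shuts off signalling above the IkB kinase, was also lower in melanoma, with no call between breast and lung. It stood at 3.21 to 7.21 CPM in melanoma (median 6.69), 14.9 to 24.3 CPM in breast (median 17.7) and 10.2 to 29.7 CPM in lung libraries (median 17.1). Every melanoma library was below all others and breast lay within the lung range. Its log2 fold change was -1.71 ± 0.25 for melanoma over lung (adjusted p = 2.96e-05), -1.66 ± 0.25 for melanoma over breast (adjusted p = 3.41e-05) and -0.05 for breast over lung (95% interval -0.55 to 0.45, adjusted p = 0.917).

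Birc3 (chromosome 9), a ubiquitin ligase that with its partners keeps the Map3k14 kinase low and serves tumour necrosis factor signalling, went with Nfkb2 rather than with Tnfaip3. It stood at 2.50 to 7.43 CPM in melanoma (median 3.99), 17.6 to 32.0 CPM in breast (median 25.6) and 7.72 to 18.6 CPM in lung libraries (median 11.3). Melanoma was below all other libraries, and breast replicate 19 lay just under lung replicate 7. Melanoma over lung was -1.49 ± 0.26 (adjusted p = 0.000198), melanoma over breast -2.58 ± 0.26 (adjusted p = 3.23e-07) and breast over lung 1.09 ± 0.25 (adjusted p = 0.00359). Centred on their means, Birc3 and Nfkb2 differed by a root mean square of 0.27 log2 over the 18 libraries, against 0.62 for Birc3 and Tnfaip3.

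**Figure D2:**
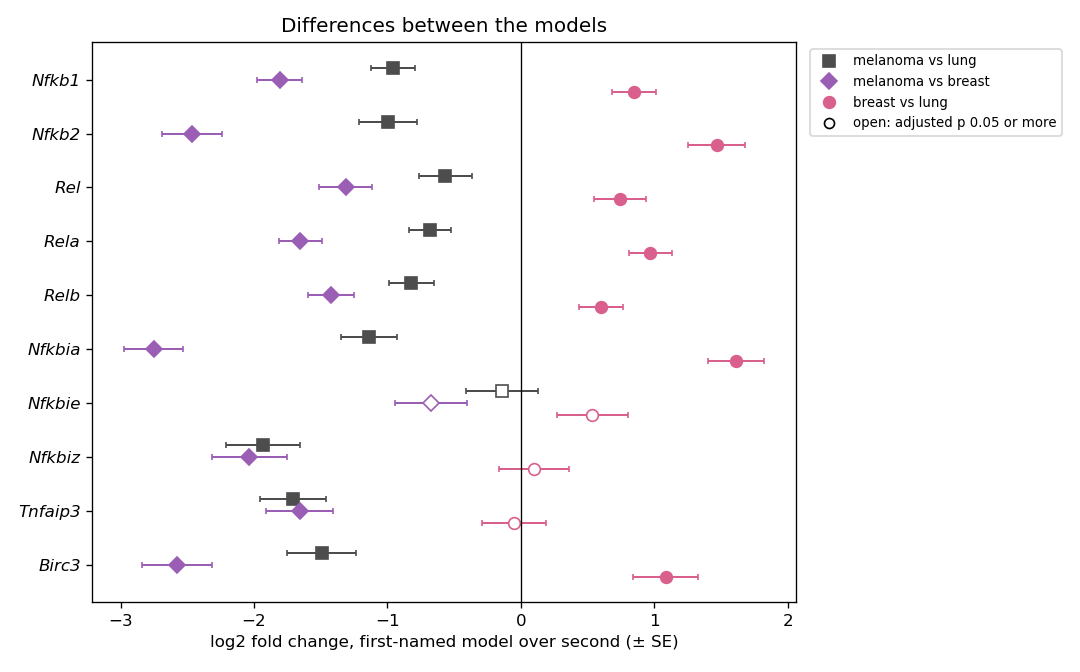
Log2 fold change of each of the 10 genes (horizontal axis, first-named model over second, bars are SE) for melanoma over lung, melanoma over breast and breast over lung, filled where the adjusted p was under 0.05. Melanoma over breast runs from -0.67 for Nfkbie to -2.75 for Nfkbia, and breast over lung sits at 0.10 for Nfkbiz and -0.05 for Tnfaip3 while 7 other genes are filled on the positive side.

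Ratios between genes within a library do not depend on how libraries were scaled, and they show where the models differed in balance and not only in amount. The 5 pairs were chosen after their values were seen and carry no test. The reads of Nfkb2 over Nfkb1 were 0.417 to 0.657 in melanoma (median 0.543), 0.783 to 0.953 in breast (median 0.876) and 0.515 to 0.612 in lung libraries (median 0.567). Nfkb2 over Relb was 1.28 to 2.94 in melanoma (median 1.86), 3.58 to 4.42 in breast (median 4.03) and 1.75 to 2.46 in lung libraries (median 2.31). In both pairs the breast libraries were apart from all others, with more Nfkb2 for each read of its partner, and melanoma overlapped lung. For Nfkb2 over Nfkb1, melanoma replicates 1 to 3 were at 0.634 to 0.657 and replicates 4 to 6 at 0.417 to 0.451. Their melanocyte, cell cycle and neuron markers and their slopes on transcript length split the same libraries.

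The feedback genes were weighted differently too. Nfkbia over Tnfaip3 was 2.55 to 9.85 in melanoma (median 2.68), 4.27 to 12.02 in breast (median 7.30) and 1.95 to 3.34 in lung libraries (median 2.30). Breast was above lung in every library, and melanoma overlapped breast through replicate 3 alone, the library with 31.7 CPM of Nfkbia and 3.21 CPM of Tnfaip3, whose long transcripts were under-represented. Breast replicates 18 and 19, also poor in long transcripts, held the highest breast ratios, 12.02 and 9.83, against 4.27 to 8.44 in the other 4. Birc3 over Tnfaip3 was 0.453 to 1.46 in melanoma (median 0.593), 1.05 to 1.89 in breast (median 1.35) and 0.525 to 0.756 in lung libraries (median 0.656), again with breast clear of lung. The highest melanoma and breast values fell in melanoma replicate 3 and breast replicate 18, both poor in long transcripts. Breast replicate 19, also poor in them, was at 1.18. Nfkbia over Rela, an inhibitor against the subunit it binds, was 0.540 to 1.43 in melanoma (median 0.662), 1.11 to 2.46 in breast (median 1.41) and 0.684 to 1.28 in lung libraries (median 1.02), with all 3 models overlapping. Melanoma overlapped breast through replicate 3 alone, at 1.43, against 0.540 to 0.868 in the other melanoma libraries. Here too breast replicates 18 and 19 were highest, at 2.46 and 2.29, against 1.11 to 1.54 in the other breast libraries.

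**Figure D3:**
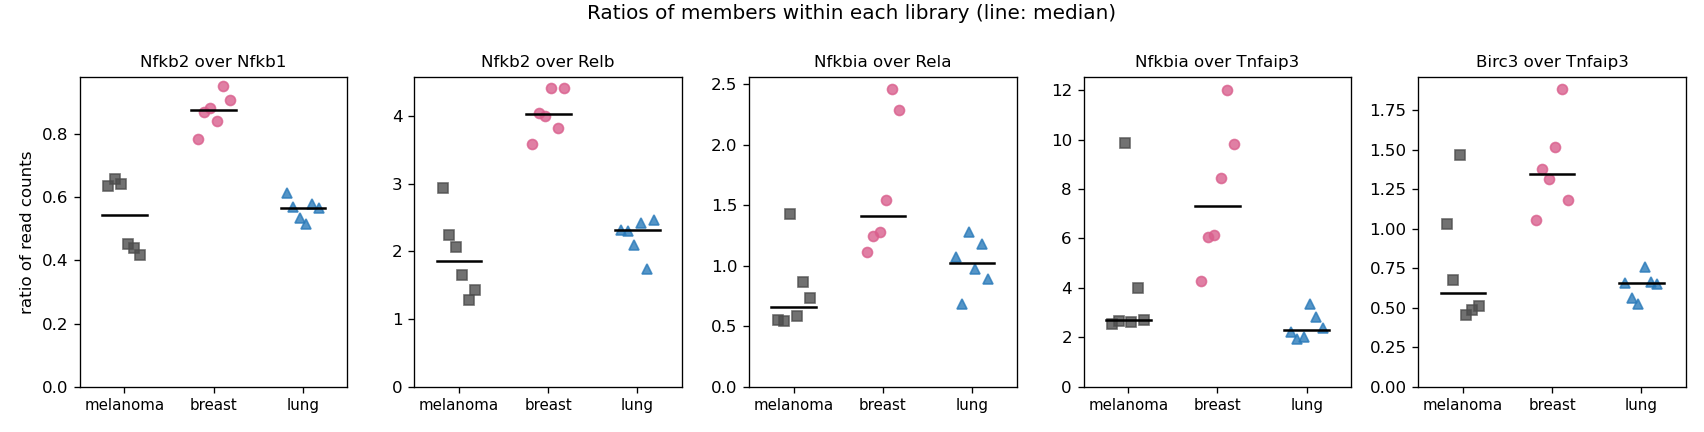
Ratio of the read counts of 2 genes in the same library (vertical axis, linear from 0), 1 point per brain with the median as a line, for the 6 melanoma, 6 breast and 6 lung libraries. For Nfkb2 over Nfkb1 the breast points lie at 0.783 to 0.953 and all others at 0.657 or under; for Nfkbia over Tnfaip3 a single melanoma point at 9.85 stands among the breast points.

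Levels can be set between genes only per length, here as RPKM, CPM divided by the kilobases of the union of a gene's exons. Nfkbia had the highest level in each model, 12.9 ± 3.38 RPKM in melanoma, 87.0 ± 21.3 RPKM in breast and 28.4 ± 8.29 RPKM in lung libraries (mean ± SD, n = 6 each). Rela came next, at 9.12 ± 1.78 RPKM in melanoma, 28.7 ± 5.88 RPKM in breast and 14.6 ± 2.58 RPKM in lung. The breast libraries of Nfkbia all lay above those of Rela, while the ranges of these genes overlapped in melanoma and in lung. Nfkb2 was the third in each model, at 3.63 ± 1.28 RPKM in melanoma, 20.0 ± 3.62 RPKM in breast and 7.24 ± 1.89 RPKM in lung.

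Below Nfkb2 the melanoma order was Nfkbie, Nfkb1, Relb, Nfkbiz, Birc3, Tnfaip3 and Rel, of which only Relb and Nfkbiz were neighbours without overlap. The breast order was Nfkb1, Relb, Birc3, Nfkbie, Nfkbiz, Tnfaip3 and Rel, with Nfkb2 clear of Nfkb1 and Tnfaip3 clear of Rel. The lung order was Nfkb1, Relb, Nfkbiz, Nfkbie, Tnfaip3, Birc3 and Rel, with Birc3 clear of Rel. Rel closed the list in each model, at 0.524 ± 0.106 RPKM in melanoma, 1.29 ± 0.344 RPKM in breast and 0.777 ± 0.173 RPKM in lung. Birc3 stood above Tnfaip3 in breast without overlap. In melanoma the means were close, 0.857 RPKM of Birc3 and 0.829 RPKM of Tnfaip3, and Birc3 was above Tnfaip3 in only 2 of 6 libraries. By the longest transcript Birc3 was above Tnfaip3 in 5 of 6 melanoma libraries. In lung the order of the means turned with the length used. They were 2.43 RPKM of Birc3 and 2.71 RPKM of Tnfaip3 by the union of exons, and 4.18 and 3.16 RPKM by the longest transcript. Nfkb1 has 12061 bases of annotated exons but a longest transcript of 4149, and by the longest transcript it took rank 3 and Nfkb2 rank 4 in all models.

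Within a model the 10 genes tended to be high or low in the same brains. Lung replicate 7 was the highest of its model for 9 of 10 genes and replicate 10 the lowest for 8 and among the lowest 2 for all 10, a mean deviation from the lung mean of 0.60 and -0.52 on the log2 scale. Breast replicate 16 was highest for 8 genes (0.33) and replicate 19 lowest for 8 (-0.37). Breast replicate 19 was poor in long transcripts and had 7432159 counts, against 12551756 to 13544054 in breast replicates 14 to 17. Melanoma replicate 1 was highest for 6 (0.35) and replicate 3, poor in long transcripts, highest for 2 and lowest for 3, while replicates 6 and 5 were lowest for 5 and 2 (-0.24 and -0.29). Lung replicate 10 also had the lowest summed markers of its model for epithelium (309 CPM), microglia (726 CPM), monocytes and macrophages (380 CPM), neutrophils (26.0 CPM) and the cell cycle (298 CPM). Lung replicate 7 had the highest neutrophil sum (215 CPM), and melanoma replicate 1 the highest monocyte and macrophage sum (203 CPM) and T cell sum (24.6 CPM, against 10.4 to 15.3 CPM in the other melanoma libraries). Lung replicate 10 had the highest sums of its model for neurons (5312 CPM) and endothelium (265 CPM). Lung replicate 7 had the lowest for neurons (3767 CPM) and astrocytes (3361 CPM). The part of these cells in the spread was not tested.

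**Figure D4:**
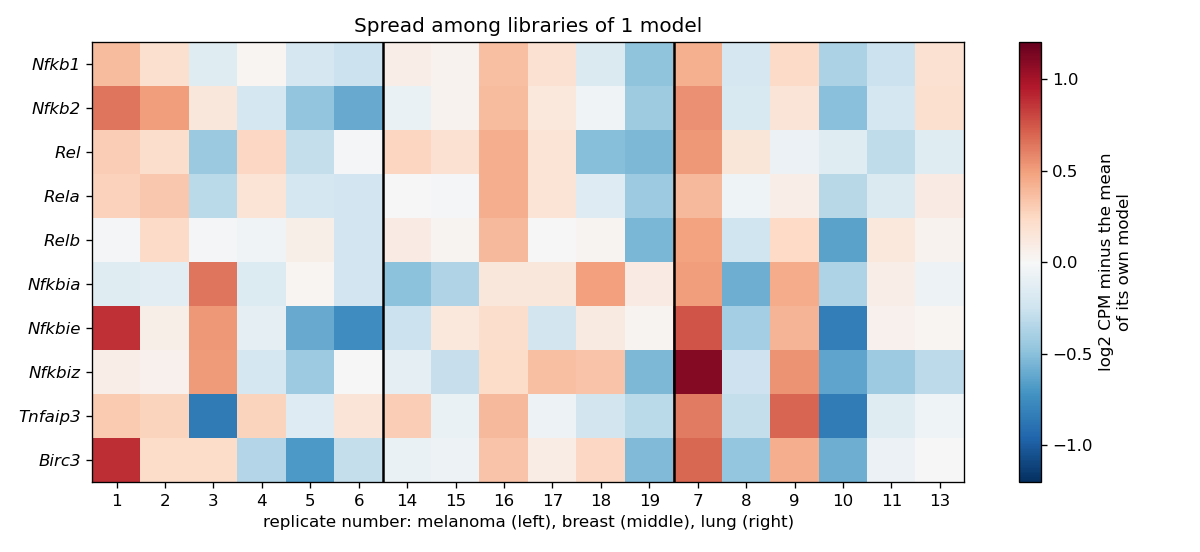
Log2 CPM of each gene (rows) in each library (columns, melanoma at left, breast in the middle, lung at right) minus the mean of its own model, red above and blue below. Columns tend to share 1 colour: lung replicate 7 is red for nearly all genes (mean 0.60) and lung replicate 10 blue (mean -0.52), and melanoma replicate 3 is split, red for Nfkbia and blue for Rel and Tnfaip3.

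Genes elsewhere in the transcriptome with the pattern most like Nfkb2, by the smallest root mean square difference of centred log2 CPM over the 18 libraries (genes averaging 1 CPM or more), were Itpripl2 (0.21), Antxr2 (0.26), an anthrax toxin receptor that binds matrix, and Fkbp10 (0.26), a collagen chaperone. Fkbp10 stood at 19.3 ± 6.36 CPM in melanoma, 112.8 ± 31.0 CPM in breast and 39.3 ± 6.64 CPM in lung libraries (mean ± SD, n = 6 each). Most like Nfkbia were Hspb8 (0.25), a small heat shock protein, Castor1 (0.26), an arginine sensor of the mTOR pathway, and Ier3 (0.30), an immediate early gene. Hspb8 stood at 19.2 ± 2.74 CPM in melanoma, 113.3 ± 36.2 CPM in breast and 44.9 ± 9.23 CPM in lung libraries. These are likenesses of pattern over libraries that share 3 models.

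Around these 10 genes, most tested receptors, ligands and target genes of the pathway were lower in melanoma, in the comparison with lung and in that with breast. Of all genes tested, 8.51% were higher and 14.7% lower for melanoma against lung, 9.76% higher and 19.2% lower for melanoma against breast, and 11.2% higher and 7.16% lower for breast against lung. The 5 lists held 77 genes and overlap in part with genes already known to differ in these data. Of the IkB kinase and adaptor genes 19 of 20 were tested. None was higher and 2 were lower for melanoma against lung (10.5%, under the share of all genes, median log2 fold change -0.11). There were 2 higher (10.5%) and 9 lower (47.4%) for melanoma against breast (-0.29), and 4 higher (21.1%) and none lower for breast against lung (0.18). Map3k14, the kinase of the non-canonical pathway, stood at 6.12 ± 1.40 CPM in melanoma, 13.5 ± 3.12 CPM in breast and 10.5 ± 0.844 CPM in lung libraries (mean ± SD, n = 6 each). It was lower in melanoma than in lung (-0.77, adjusted p = 0.00186) and breast (-1.14, adjusted p = 2.9e-05), with 0.37 for breast over lung (adjusted p = 0.141). Bcl10, the adaptor between antigen receptors and the kinase, was at 21.8 ± 8.54 CPM in melanoma, 52.5 ± 12.4 CPM in breast and 30.2 ± 5.89 CPM in lung libraries. It was lower in melanoma than in breast (-1.26, adjusted p = 0.00013) and higher in breast than in lung (0.80, adjusted p = 0.012), with -0.47 for melanoma over lung (adjusted p = 0.136). The call between breast and lung was lost without breast replicate 18 (0.64, adjusted p = 0.0537), and melanoma was called lower than lung without melanoma replicate 3 (-0.69, adjusted p = 0.00612). Irak1, a kinase below interleukin-1 and Toll-like receptors, was at 70.6 ± 8.57 CPM in melanoma, 92.6 ± 8.70 CPM in breast and 67.1 ± 3.02 CPM in lung. Its breast level was higher than that of lung (0.46, adjusted p = 0.00131) and melanoma was lower than breast (-0.39, adjusted p = 0.00321), with 0.07 for melanoma over lung (adjusted p = 0.66). Myd88 and the ligand Tnfsf12 were listed with 0 reads in all 18 libraries and are not analysed here.

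Of the other inhibitors 14 of 14 were tested. They included 1 higher (7.14%) and 3 lower (21.4%) for melanoma against lung (median 0.05), which is near the shares of all genes. They also included none higher and 6 lower (42.9%) for melanoma against breast (-0.36), and 4 higher (28.6%) and none lower for breast against lung (0.27). Bcl3, a nuclear IkB protein, was 1.63 ± 0.695 CPM in melanoma, 14.6 ± 2.66 CPM in breast and 12.9 ± 4.53 CPM in lung libraries. It was lower in melanoma than in lung (-2.96, adjusted p = 2.92e-07) and breast (-3.15, adjusted p = 1.26e-07), with 0.19 for breast over lung (adjusted p = 0.684). Tnip1, a ubiquitin-binding partner of the Tnfaip3 product, was the one inhibitor higher in melanoma than in lung, at 60.3 ± 15.9 CPM in melanoma, 78.9 ± 12.99 CPM in breast and 42.5 ± 3.34 CPM in lung libraries. Melanoma over lung was 0.50 (adjusted p = 0.0163), melanoma over breast -0.39 (adjusted p = 0.0554) and breast over lung 0.89 (adjusted p = 0.000196). Melanoma against breast was called without melanoma replicate 1 (-0.53, adjusted p = 0.00365) or 2 (-0.43, adjusted p = 0.0495). Zc3h12a, an RNase that degrades inflammatory mRNAs, was lower in melanoma than in lung (-1.47, adjusted p = 0.00282) and breast (-1.99, adjusted p = 0.000136). It stood at 2.03 ± 0.840 CPM in melanoma, 8.16 ± 1.62 CPM in breast and 5.69 ± 3.40 CPM in lung, with 0.52 for breast over lung (adjusted p = 0.3; 0.86 and called without lung replicate 7, adjusted p = 0.0439).

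Of the receptors 11 of 12 were tested. None was higher and 7 were lower (63.6%) for melanoma against lung (median -0.99). For melanoma against breast none was higher and 9 were lower (81.8%, median -1.45). For breast against lung 2 were higher (18.2%) and 1 lower (9.09%), with a median of 0.45, beside 11.2% and 7.16% of all genes. Tnfrsf1b, a tumour necrosis factor receptor of leukocytes and microglia, had the same order of models as Nfkb2, at 5.92 ± 2.50 CPM in melanoma, 62.7 ± 13.4 CPM in breast and 25.5 ± 8.88 CPM in lung libraries. Its log2 fold changes were -2.10 for melanoma over lung (adjusted p = 7.15e-06), -3.40 for melanoma over breast (adjusted p = 2.74e-08) and 1.30 for breast over lung (adjusted p = 0.00111). Il1r1, the signalling receptor of interleukin-1, stood at 5.50 ± 1.39 CPM in melanoma, 19.6 ± 3.99 CPM in breast and 16.5 ± 2.52 CPM in lung. Tlr2, the receptor of bacterial lipoproteins, stood at 4.43 ± 2.80 CPM in melanoma, 50.1 ± 6.15 CPM in breast and 36.7 ± 12.98 CPM in lung. Both were lower in melanoma than in lung (-1.59, adjusted p = 1.14e-06, for Il1r1 and -3.04, adjusted p = 9.77e-07, for Tlr2) and than in breast (-1.83 and -3.49, adjusted p = 1.8e-07 for each). Breast over lung was not called for either, at 0.24 (adjusted p = 0.377) for Il1r1 and 0.45 (adjusted p = 0.355) for Tlr2.

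Of the ligands 8 of 11 were tested. None was higher and 6 were lower (75%) for melanoma against lung (median -2.03). For melanoma against breast none was higher and 7 were lower (87.5%, median -2.33). For breast against lung 2 were higher (25%) and 1 lower (12.5%), with a median of 0.63, beside 11.2% and 7.16% of all genes. Il33, an alarmin held in nuclei of astrocytes and oligodendrocytes, was at 62.0 ± 11.1 CPM in melanoma, 130.6 ± 12.97 CPM in breast and 66.4 ± 3.53 CPM in lung libraries. The log2 fold change was -1.07 for melanoma over breast (adjusted p = 5.93e-07), 0.98 for breast over lung (adjusted p = 3.69e-06) and -0.10 for melanoma over lung (adjusted p = 0.624). Tnfsf13b, a B cell survival factor, was lower in melanoma (1.63 ± 0.590 CPM) than in breast (10.1 ± 1.06 CPM; -2.64, adjusted p = 6.18e-07) and lung (5.16 ± 2.28 CPM; -1.67, adjusted p = 0.000154), and higher in breast than in lung (0.97, adjusted p = 0.0115). Tnfsf11, the ligand of the receptor RANK, was highest in lung, at 3.34 ± 1.36 CPM. It averaged 0.0897 ± 0.142 CPM in melanoma, under the level of 3 counts, and 0.372 ± 0.255 CPM in breast, near that level. Tnfsf11 differed by -4.98 for melanoma over lung (adjusted p = 9.89e-07) and -3.12 for breast over lung (adjusted p = 4.47e-05). Melanoma over breast was -1.87 (adjusted p = 0.0627). That difference was called without melanoma replicate 1 (-3.12, adjusted p = 0.00687) or breast replicate 16 (-2.05, adjusted p = 0.0468).

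Of the target genes 17 of 20 were tested. There, 1 was higher (5.88%) and 15 were lower (88.2%) for melanoma against lung (median -2.71). For melanoma against breast none was higher and 14 were lower (82.4%, median -2.65). For breast against lung 6 were higher (35.3%) and none lower, with a median of 0.66. Icam1, the adhesion molecule by which leukocytes bind endothelium, stood at 4.87 ± 2.21 CPM in melanoma, 56.6 ± 13.5 CPM in breast and 35.6 ± 14.5 CPM in lung libraries. Its log2 fold change was -2.86 for melanoma over lung (adjusted p = 6.83e-07), -3.53 for melanoma over breast (adjusted p = 5.94e-08) and 0.67 for breast over lung (adjusted p = 0.108). Ier3 had the order of models seen in Nfkbia, at 16.4 ± 3.27 CPM in melanoma, 93.3 ± 20.9 CPM in breast and 30.4 ± 12.4 CPM in lung. The difference was -0.89 (adjusted p = 0.00751) for melanoma over lung, -2.50 (adjusted p = 1.52e-07) for melanoma over breast and 1.62 (adjusted p = 3.96e-05) for breast over lung. Csf1, the growth factor of macrophages and microglia, was at 23.4 ± 7.72 CPM in melanoma, 123.9 ± 28.6 CPM in breast and 78.8 ± 16.5 CPM in lung. It differed by -1.75 (adjusted p = 7.99e-06) for melanoma over lung, -2.40 (adjusted p = 1.71e-07) for melanoma over breast and 0.66 (adjusted p = 0.0455) for breast over lung. The last call is marginal: it was lost without melanoma replicate 2, 5 or 6, lung replicate 7, 8, 9, 10 or 11, or breast replicate 14, 15, 16, 17 or 18 (0.55 to 0.70, adjusted p = 0.0504 to 0.115). The target higher in melanoma than in lung was Sod2, the mitochondrial superoxide dismutase, at 147 ± 6.12 CPM in melanoma and 126.9 ± 7.13 CPM in lung (0.22, adjusted p = 0.0418). That call is marginal too: it was lost without melanoma replicate 1 or 2, lung replicate 7, 8, 9, 10 or 13, or breast replicate 14, 15, 16 or 17 (0.19 to 0.23, adjusted p = 0.05 to 0.109). Sod2 was named after its value was seen.

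**Figure D5:**
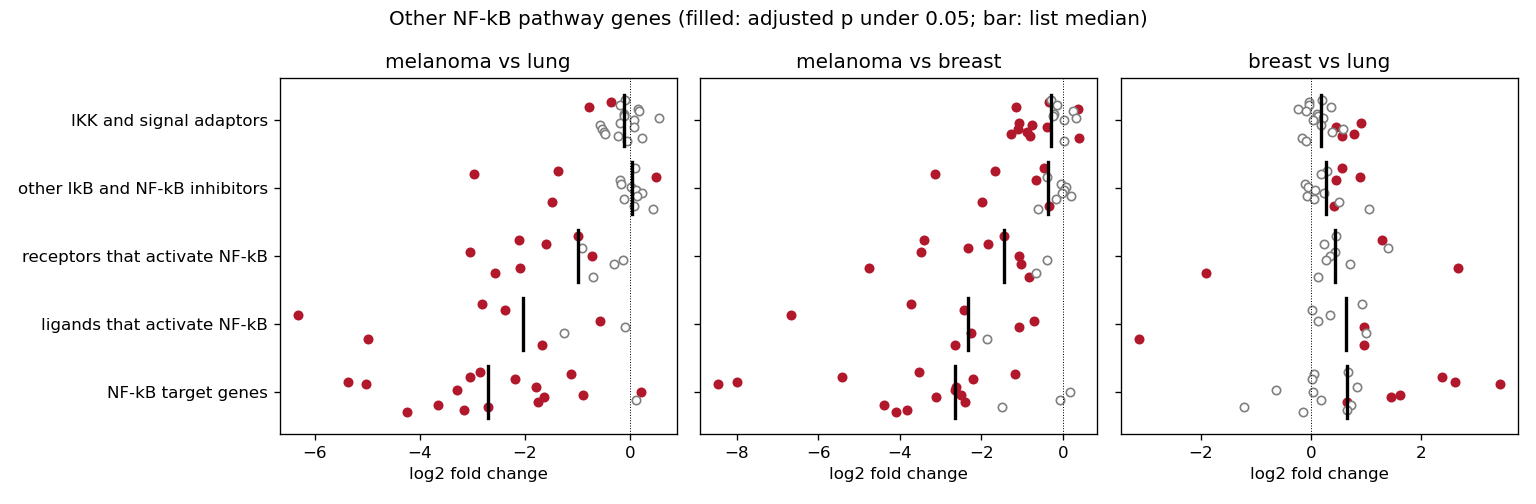
Log2 fold change of each tested gene of 5 lists (rows: IkB kinase and adaptors, other inhibitors, receptors, ligands, targets) for melanoma over lung, melanoma over breast and breast over lung, filled where the adjusted p was under 0.05, with the list median as a bar and the zero line dotted. For melanoma over lung the median lies at -0.11 for the kinase and adaptor list and at -2.71 for the targets.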

How the data were processed

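Directional poly(A)+ libraries (NEBNext Ultra II) were made from 1 µg of RNeasy-purified RNA, per the labels' protocols. Per the submitters' processing notes, reads were demultiplexed with bcl2fastq and the genome was GRCm39. The aligner, the counter, its strand setting and the annotation release are not given in the sources used here. One deposited table, of counts, holds raw counts per Ensembl gene, without normalization by the authors, and the deposited table of CPM values holds 16925 genes under upper-case symbols. The 180 values of the 10 genes in 18 libraries gave the same reads in both tables, and 100% of the deposited CPM values came out as whole reads (tolerance 0.01). Symbols and lengths came from GENCODE M21 by gene ID (52083 of 55416 IDs, 94.0%, had a symbol), and chromosomes from RefSeq by symbol.

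The main fit used edgeR 4.0.16 under R 4.3.3 (quasi-likelihood test, robust, scaled by TMM, filterByExpr), with 1 coefficient per model over all 18 libraries, 17174 genes and Benjamini-Hochberg adjustment over all of them. The fit was tested on simulated data. Alternatives used limma 3.58.1, DESeq2 1.42.0, other scalings and filters, 12 libraries, left-out libraries and, chosen after seeing the files, the reads recovered from CPM. RPKM was computed here. No batch was named in the labels, so a batch that follows the models cannot be told apart from them. Library number 12 was not analysed here. Named were all 10 genes, the 3 genes of each list with the smallest p for any difference, and the 3 genes most like Nfkb2 and Nfkbia. The members, the lists and the left-out libraries were chosen with earlier results of these data known. The floor of 3 counts covers counting error only, while 95% intervals are those of the fitted fold change. The SE of a fold change was computed back from the test, as its size over the square root of F. The intervals were built from this SE.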

Additional observations from a re-analysis of the deposited data

Results flagged for a closer look

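Of 30 sets of 6 libraries (10 genes in 3 models), 1 held a value far from the others. Nfkbia stood at 31.7 CPM in melanoma replicate 3, against 17.3 to 20.7 CPM in the other 5 melanoma libraries, a gap of 0.767 of the whole range where the critical value was 0.625. Chance flags about 1 in 20 such sets. Long transcripts were under-represented in this library, and its Rel (2.82 CPM) and Tnfaip3 (3.21 CPM) were the lowest of the 6, while its melanocyte sum (23360 CPM) was the highest; the part of either in the Nfkbia value was not tested.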

How the results depend on the processing

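Of 900 fold changes recomputed (30 over 12 settings and 18 left-out libraries), 867 kept direction and side of the threshold, 18 lost the call, 4 gained it and 11 turned, all 11 among differences that were not called. Those that turned were Nfkbie for melanoma over lung (leaving out 1 library, -0.354 to 0.0406, positive without melanoma replicate 6 or lung replicate 7), Nfkbiz for breast over lung (-0.0217 to 0.401, negative without lung replicate 10 or 11 or breast replicate 18, and -0.119 without melanoma replicate 1 and lung replicates 8 and 10 together), and Tnfaip3 for breast over lung (-0.183 to 0.106, positive without lung replicate 7 or 9, 0.0301 with limma voom, 0.0186 with limma on the deposited CPM and 0.0163 without the 3 libraries poor in long transcripts). The cause was not tested. Of the 18 lost calls, 17 were Rel for melanoma against lung and 1 was Relb for breast against lung; the 4 gained were Nfkbie for melanoma against breast.

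The number of the 10 genes called was 8 to 9 for melanoma against lung, 9 to 10 for melanoma against breast and 6 to 7 for breast against lung over all settings. Of the listed pathway genes, 35 (29 to 41), 47 (43 to 57) and 20 (16 to 25) were called in these comparisons. With the longest transcript as length, 8 of 30 levels per length moved by more than 1 SD, and with library totals none of 30 did. No paired analysis was possible because each brain carried 1 model and the labels match no brains between models.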
